A study of Mus musculus with 6 samples.

Results

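The 8 ALS-linked genes described here are Tardbp, Matr3, Vcp, Ubqln2, Optn, Tbk1, Nek1 and Sod1, whose human counterparts are mutated in some patients with amyotrophic lateral sclerosis (ALS), a disease in which motor neurons are lost. They were chosen by symbol for that link, with earlier results of these data known, and all 8 of 8 were listed among the 23038 genes of the mRNA-seq data. The cells were primary mouse oligodendrocyte precursor cells (mOPCs), the dividing cells that give rise to myelinating oligodendrocytes, purified by immunopanning from E14.5 embryos. Libraries of poly-A RNA came from 3 cultures given a control siRNA (siNC) and from 3 given siRNAs against Qk (siQk). The siQk group drew on 3 different Qk siRNAs, and which siRNA went into which library is not given in the sources used here. The labels name no ALS mutation in these cells. The comparison asks how far the transcripts of these genes moved when Qk, the gene of the Quaking RNA-binding proteins, was knocked down. P-values below measure the spread between these libraries.

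The protein products of these genes fall into a few roles. TDP-43 (from Tardbp) and matrin-3 (Matr3) bind RNA in the nucleus. The ATPase VCP and the shuttle protein ubiquilin-2 handle ubiquitinated proteins, and the kinase TBK1 phosphorylates the autophagy receptor optineurin (Optn), so that these proteins act in the clearance of damaged proteins and organelles. NEK1 is a kinase of cilia and of the DNA damage response, and SOD1 removes superoxide from the cytosol. Quaking proteins bind the RNA letters ACUAA followed by a pyrimidine and are known in the oligodendrocyte lineage for the splicing, stability and transport of myelin transcripts.

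The libraries held from 58166490 to 141045937 tags, the deposited estimate of reads per gene summed over genes. Levels are given as deposited RPKM, which is tags scaled by the exon length of the gene and by the total of the library. In siNC replicate 1, the ribosomal RNA precursor Rn45s took 3.115% of the tags against 0.169% to 0.389% in the other libraries. Qk itself stood at 209, 206 and 163 RPKM in the siNC libraries and at 51.3, 76.6 and 36.2 RPKM in the siQk libraries, so that every siQk library was below every siNC library. All 10 OPC markers were at 1 RPKM or more in at least 1 library, with a summed level of 1060 to 1140 RPKM in siNC and 1260 to 1420 RPKM in siQk. Of these, Lhfpl3 alone had a lower mean in siQk (203 ± 14.9 and 108 ± 9.38 RPKM). Of 10 markers of the mature oligodendrocyte, 9 were listed, and their sum was 3310 to 5820 RPKM in siNC against 1360 to 2060 RPKM in siQk, so that transcripts of maturing cells moved with the groups. In such bulk samples, fewer cells of a type and less RNA per cell cannot be told apart. Markers of motor neurons summed to 6.22 to 7.78 RPKM in siNC and 5.83 to 6.48 RPKM in siQk, with 5 of the 8 below 1 RPKM in every library. The others moved in opposite directions. Isl2 was higher in every siQk library than in every siNC library (3.37 ± 0.24 and 5.13 ± 0.473 RPKM). Prph (2.5 ± 0.825 and 0.651 ± 0.149) and Slc18a3 (0.905 ± 0.589 and 0.162 ± 0.041) were lower in every siQk library. Neuronal markers summed to 145 to 218 RPKM in siNC and 122 to 167 RPKM in siQk, most of it from Tubb3 (123 ± 37.2 and 91.9 ± 20.3 RPKM). Some other neuronal markers were higher in every siQk library than in every siNC library, namely Snap25 (0.751 ± 0.124 and 5.18 ± 2.16 RPKM), Nefl (1.88 ± 0.414 and 6.36 ± 0.253), Nefm (2.31 ± 1.02 and 4.68 ± 0.139), Syt1 (1.55 ± 0.731 and 3.14 ± 0.362) and Elavl4 (7.53 ± 2.41 and 12.7 ± 1.33). Elavl3 (34.3 ± 9.11 and 25.2 ± 5.05), Rbfox3 (0.551 ± 0.111 and 0.408 ± 0.161) and Stmn2 (0.0325 and 0.0277) had lower means in siQk, with overlapping groups. Astrocyte markers summed to 194 to 285 RPKM in siNC and 169 to 198 RPKM in siQk, with Gfap lower in siQk (69.1 ± 27.9 against 9.85 ± 1.26 RPKM, SD, n = 3). Slc1a3 (25.5 ± 3.03 and 10.9 ± 0.913) and Aldh1l1 (7.02 ± 0.826 and 1.69 ± 0.254) were also lower. S100b, the largest part of the sum, had a higher mean in siQk (140 ± 26.4 and 157 ± 15.8), with overlapping groups. Microglial markers summed to at most 3.32 RPKM and all 8 fibroblast and vascular markers were below 1 RPKM.

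The 8 genes spanned a wide range of levels. In siNC, Sod1 was highest at 272 ± 26.7 RPKM (SD, n = 3), a level above 99% of the genes tested, and Matr3 followed at 123 ± 11 RPKM. Tardbp was next at 37.3 ± 1.98 RPKM. Ubqln2, Tbk1 and Vcp came after it at 30.4 ± 3.73, 29.9 ± 2.0 and 27.4 ± 1.33 RPKM, and the ranges of these neighbours overlapped. Optn and Nek1 were lowest at 7.08 ± 1.03 and 6.29 ± 0.891 RPKM, again with overlapping ranges, and 40% and 37.3% of the tested genes had a lower level. In siQk, the first 6 genes kept this order, while Optn, at 5.02 ± 0.214 RPKM, fell below Nek1 at 6.1 ± 0.665 RPKM, and no neighbours overlapped.

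**Figure D1:**
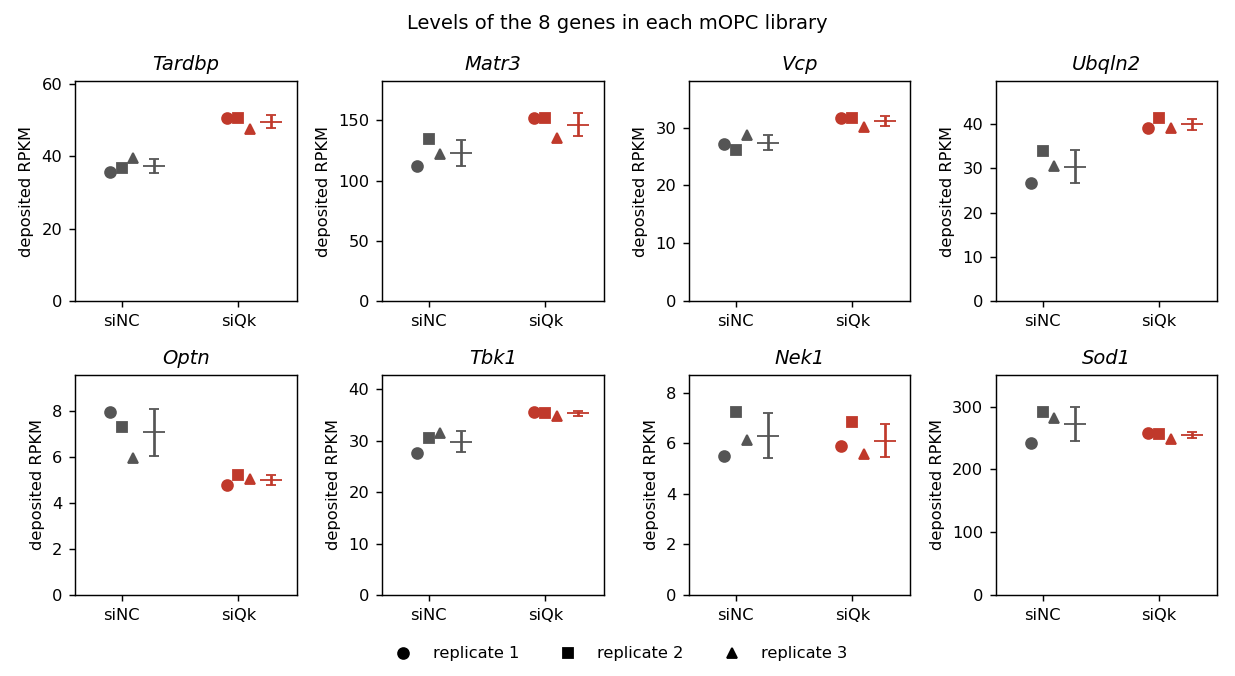
Deposited RPKM (y axis, from 0) of the 8 genes in the 3 siNC libraries (grey) and the 3 siQk libraries (red), 1 panel per gene, with the marker shape giving the replicate number and the bar the mean and SD. Tardbp in siQk sits at 47.5 to 50.6 RPKM, above all siNC libraries, Optn sits below them at 4.79 to 5.22 RPKM, and the groups overlap for Nek1 and Sod1.

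In the test across genes (edgeR's quasi-likelihood test with TMM scaling, called at P below 0.01 and a Benjamini-Hochberg adjusted p below 0.1), all 8 genes passed the filter on low counts and 3 of them were called. Tardbp rose, and Optn and Sod1 fell. Among all 12505 genes tested, 31% were called, 13.8% higher and 17.2% lower in siQk, so that 3 of 8 genes is a share near the background. With library size only or upper quartile scaling, 2 were called higher and 1 lower, Ubqln2 being gained and Sod1 lost. In these settings 34.8% and 32.1% of all tested genes were called. The median absolute log2 fold change was 0.22 over the 8 genes and 0.25 over all genes tested, and none of the 8 reached an absolute log2 fold change of 1, against 901 called genes that did. The median signed log2 fold change was 0.06 over the 8 and 0.01 over all genes tested. The calls also depended on the libraries used: without siQk replicate 1, none of the 8 was called in edgeR's test, beside 19.8% of all genes. At an unadjusted p below 0.05 in that test, 2 were higher and 2 lower. The share of all genes under this looser rule was not computed, so that no weight is put on these counts. Without siQk replicate 1, the log2 fold changes were 0.24 for Tardbp, -0.62 for Optn and -0.25 for Sod1. With all 6 libraries they were 0.26, -0.65 and -0.24. Without siQk replicate 2, Optn was the single gene of the 8 called, and 21.5% of all genes were. DESeq2 on all 6 libraries called the same number as edgeR, 1 higher and 2 lower, beside 39.1% of all tested genes.

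Whether the groups overlapped depended for some genes on how libraries were scaled. TMM factors were 0.899 to 0.987 for siNC and 1.04 to 1.07 for siQk, and with scaling by library size only the median of all tested genes moved from 0.01 to 0.16, and 2989 genes were called higher and 1365 lower in place of 1730 and 2149. On the deposited RPKM scale, which is scaled by library size, every siQk library was above every siNC library for 5 of the 8 genes (Tardbp, Matr3, Vcp, Ubqln2 and Tbk1) and below for Optn alone. The same held upward for 41.9% and downward for 16.4% of all genes tested. With TMM factors applied to the RPKM, Tardbp, Ubqln2 and Tbk1 stayed wholly higher, and Optn and Sod1 were wholly lower, beside 28% and 26.4% of all genes. The sign of each fitted change was the same under the 4 scalings tried, TMM, RLE, upper quartile and library size only.

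**Figure D2:**
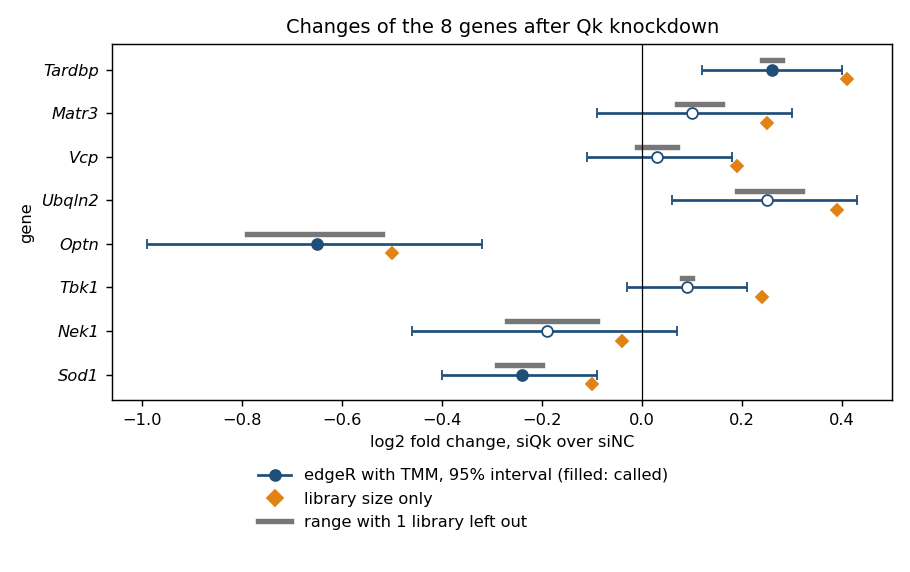
Log2 fold change of siQk over siNC (x axis) for the 8 genes, as edgeR's estimate with TMM scaling and its 95% interval (blue, filled where called), the estimate with library size only (orange diamonds) and the range of the estimates with 1 library left out (grey bars). Library size only moves every gene to the right, from 0.26 to 0.41 for Tardbp and from -0.24 to -0.10 for Sod1, and no sign changes with it.

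Tardbp lies at chr4:148612382-148627019 on the minus strand (mm10, GENCODE M21), with 30 annotated transcripts. TDP-43 binds the 3′UTR of its own transcript and so limits its own level in many cells. The transcript was at 35.7, 36.7 and 39.5 RPKM in siNC and at 50.5, 50.6 and 47.5 RPKM in siQk. The groups did not overlap, and the exact two-sided permutation test gave p = 0.1, the smallest that 3 libraries against 3 allow. In edgeR's test, the log2 fold change was 0.26 ± 0.06 (SE), with a 95% interval of 0.12 to 0.40 and an adjusted p of 0.0165, so that the level in siQk was 120% of that in siNC. This size of change was ordinary among the tested genes, 51% of which had a smaller absolute change. The call was lost without siQk replicate 1 (log2 fold change 0.24) and without siQk replicate 2 (0.25). Tardbp shares 1817 exon bases with Masp2 on the opposite strand, and the library kit does not mark strand, so that reads in that stretch cannot be told apart.

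The longest annotated 3′UTR of Tardbp, 5879 bases, held 2 copies of the Quaking recognition letters, searched as ACTAAC or ACTAAT on the transcript strand. They are shown because Tardbp is the member called higher after loss of Qk, with the matching letters in capitals and 10 bases on either side. The first lies at chr4:148614358-148614383 and the second at chr4:148613217-148613242, both on the minus strand of mm10, at bases 3888 and 5029 of the 3′UTR.
Tardbp 3′UTR match 1: atctagaaacACTAATgcccccccac
Tardbp 3′UTR match 2: aggctagaaaACTAATttaaaccagc
Both matches end in T. Matches of this kind are common in long 3′UTRs: of 487 tested genes with a 3′UTR within 20% of this length, 79.9% held at least 1 and 49.7% held at least 2. Over all 10819 tested genes with an annotated 3′UTR of at least 50 bases, 36.2% held a match. The 3′UTR of Matr3 (3405 bases) held 1 match, where 65.2% of genes of like length held any. No match was found in the 3′UTRs of Vcp, Ubqln2, Optn, Tbk1, Nek1 and Sod1, which were 72 to 1200 bases long and for which 3.1% (Sod1) to 29.4% (Nek1) of genes of like length held any. A match describes letters and not binding, and whether these cells use the longest annotated 3′UTR was not tested.

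Matr3 lies at chr18:35562138-35593835 on the plus strand. Matrin-3 is a protein of the nuclear matrix that takes part in splicing. The gene was at 112, 134 and 122 RPKM in siNC and at 152, 152 and 135 RPKM in siQk. These deposited values did not overlap, but the gap between the groups was 0.482% of the siNC mean. After TMM scaling the groups overlapped, at 124, 139 and 124 in siNC and 144, 142 and 129 in siQk. The log2 fold change in edgeR was 0.10 ± 0.08 (SE; 95% interval -0.09 to 0.30, adjusted p = 0.356), which did not pass the test. The exon sequence of Matr3 overlaps 1754 bases of the annotated gene Gm28285 on the same strand. The ratio of Tardbp to Matr3 within a library, which does not depend on scaling, was 0.319, 0.274 and 0.324 in siNC and 0.333, 0.333 and 0.353 in siQk.

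Vcp, at chr4:42979963-43000507 on the minus strand, encodes the hexameric ATPase that extracts ubiquitinated proteins from membranes and complexes. It was at 27.1, 26.2 and 28.8 RPKM in siNC and at 31.6, 31.7 and 30.1 RPKM in siQk. The deposited values did not overlap, whereas the TMM-scaled values did, with means of 28.8 ± 1.49 and 29.6 ± 0.54 (SD, n = 3). Of the 8 genes it had the log2 fold change nearest to 0, 0.03 ± 0.06 (SE), with an interval of -0.11 to 0.18 and an adjusted p of 0.674 in edgeR's test. Without siNC replicate 2 it was -0.01. Vcp shares 352 exon bases with 1700022I11Rik on the opposite strand, and reads in that stretch cannot be told apart.

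Ubqln2 is a gene of a single exon at chrX:153498227-153501570, and ubiquilin-2 carries ubiquitinated proteins to the proteasome. It was at 26.6, 34.0 and 30.5 RPKM in siNC and at 39.2, 41.4 and 39.2 RPKM in siQk. The siQk libraries lay close together and above the widely spread siNC libraries, also after TMM scaling. Its log2 fold change, 0.25 ± 0.08 (SE; 95% interval 0.06 to 0.43), was nearly that of Tardbp. The adjusted p of 0.0461 in edgeR's test met its limit, but the unadjusted P was above the limit of 0.01, and the gene was not called. Without siNC replicate 2, the highest of the siNC libraries, the log2 fold change was 0.32 and the gene was called.

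Optn, at chr2:5020642-5064051 on the minus strand, changed most among the 8 genes. Optineurin links ubiquitinated cargo to the growing autophagosome. The gene was at 7.98, 7.30 and 5.96 RPKM in siNC and at 4.79, 5.22 and 5.05 RPKM in siQk, based on 1434 to 2690 tags per library. Every siQk library was below every siNC library before and after TMM scaling, and siNC replicate 3 was the nearest to siQk. The log2 fold change was -0.65 ± 0.14 (SE; 95% interval -0.99 to -0.32, adjusted p = 0.0135 in edgeR's test), so that 63.6% of the siNC level was left. The absolute change was larger than that of 83.3% of the genes tested. Its estimate ranged from -0.79 to -0.52 with 1 library left out and stayed called except without siQk replicate 1, where it was -0.62. The markers of the mature oligodendrocyte moved with Optn between the groups, and their part in the result was not tested.

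Tbk1, at chr10:121546455-121586787 on the minus strand, encodes the kinase that acts on optineurin and on other autophagy receptors, and also signals in innate immunity. It was at 27.6, 30.5 and 31.5 RPKM in siNC and at 35.7, 35.5 and 34.8 RPKM in siQk. The groups did not overlap on the deposited or on the TMM-scaled RPKM, the latter with means of 31.4 ± 0.615 and 33.6 ± 0.401. Tbk1 had a log2 fold change of 0.09 ± 0.05 (SE; 95% interval -0.03 to 0.21, adjusted p = 0.183 in edgeR's test) and did not pass. Its biological coefficient of variation, 0.07, was among the lowest estimated, with 0.112% of the tested genes below it. The ratio of Tbk1 to Optn within a library was 3.46, 4.18 and 5.27 in siNC and 7.45, 6.81 and 6.90 in siQk. That these ratios did not overlap followed from the separate groups of Tbk1 and of Optn. The ratio was chosen after the values had been seen, and no test is drawn from it.

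Nek1, at chr8:60993195-61131346 on the plus strand, is the longest of the 8 genes, 138.2 kb, with 35 exons in its longest coding transcript. It was at 5.49, 7.25 and 6.14 RPKM in siNC and at 5.88, 6.85 and 5.58 RPKM in siQk. The groups overlapped fully, with an exact two-sided permutation p of 0.7. In edgeR's test, Nek1 had a log2 fold change of -0.19 ± 0.11 (SE; 95% interval -0.46 to 0.07, adjusted p = 0.208). No change of Nek1 was detectable, and the interval leaves room for a fall to a log2 fold change of -0.46.

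Sod1, at chr16:90220754-90226329 on the plus strand, is the shortest transcript of the 8 at 659 exon bases, and the most abundant per length. It was at 242, 292 and 282 RPKM in siNC and at 258, 256 and 249 RPKM in siQk. On this scale the groups overlapped, siNC replicate 1 being the lowest library of all, and the exact two-sided permutation p was 0.4. With TMM scaling, the values became 269, 304 and 285 in siNC and 246, 240 and 240 in siQk, without overlap. The log2 fold change of -0.24 ± 0.06 (SE; 95% interval -0.40 to -0.09, adjusted p = 0.0258 in edgeR's test) was called, at 84.5% of the siNC level. The call was lost in 10 of 15 alternatives, among them library size only (log2 fold change -0.10), siNC replicates 2 or 3 left out (-0.20 and -0.24) and siQk replicates 1, 2 or 3 left out (-0.25, -0.24 and -0.23). The call is therefore reported as dependent on the scaling and on the libraries used. With 1 library left out, the log2 fold change stayed between -0.29 and -0.20. The share of all tested genes called was 19.8%, 21.5% and 24% without siQk replicates 1, 2 and 3. The mature oligodendrocyte markers moved with Sod1 as well, and their part was not tested.

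Ratios of genes inside a library are free of the scaling. The 6 ratios computed were chosen after the values had been seen and are given as a description. Tardbp over Sod1 was 0.138 ± 0.0113 in siNC and 0.194 ± 0.0035 in siQk (SD, n = 3). Ubqln2 over Sod1 was 0.111 ± 0.00422 and 0.157 ± 0.00467. Tardbp over Optn was 5.37 ± 1.12 and 9.88 ± 0.581. In each of these the siQk libraries were all above the siNC libraries, whatever the scaling. This followed from the TMM-scaled values, in which both genes of each ratio separated in opposite directions. Sod1 over Sod2, the mitochondrial superoxide dismutase, was 16.5, 17.8 and 16.9 in siNC and 16.6, 15.5 and 15.9 in siQk, and these values overlapped.

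**Figure D3:**
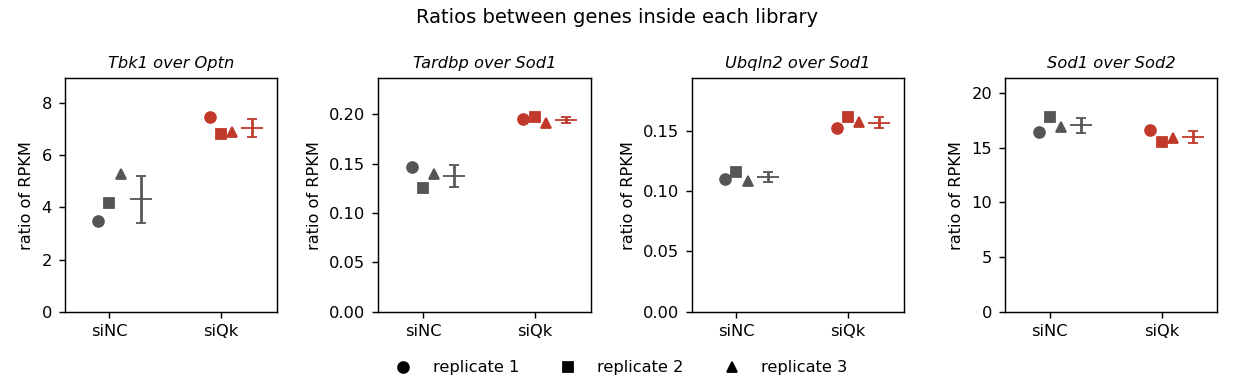
Ratio of the deposited RPKM of 2 genes within each library (y axis, from 0), for the 3 siNC (grey) and 3 siQk (red) libraries, with the marker shape giving the replicate number and the bar the mean and SD. Tbk1 over Optn is 3.46 to 5.27 in siNC and 6.81 to 7.45 in siQk, Tardbp over Sod1 and Ubqln2 over Sod1 are also apart, and Sod1 over Sod2 overlaps.

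The nearest relatives of the members were compared with them. Ubqln1, the ubiquitous relative of Ubqln2, fell from 67.2 ± 2.17 to 54.2 ± 1.15 RPKM (log2 fold change -0.46), and Ubqln4 rose from 12.7 ± 1.58 to 18.1 ± 0.809 RPKM (0.36). Ubqln1 and Ubqln2 thus had estimates of opposite sign within 1 family. Sod2 was at 15.9 ± 1.13 and 15.9 ± 0.533 RPKM, and the extracellular Sod3 was at 0.536 and 0.354 RPKM. Ikbke, the closest kinase relative of Tbk1, was at 0.306 and 0.385 RPKM, far below Tbk1. Ikbkg, the gene of the scaffold protein NEMO, to which optineurin is related, was at 8.95 ± 0.4 and 10.3 ± 0.225 RPKM. The NEK kinases moved in both directions. Nek2, a kinase of centrosome separation in mitosis, rose from 0.972 ± 0.117 to 3.68 ± 1.09 RPKM (log2 fold change 1.77). Nek6 fell from 31.4 ± 5.3 to 12.9 ± 0.32 RPKM (-1.43). In their list of 14 NEK kinases and NEK1 partners, 3 were called higher and 2 lower in edgeR's test, 35.7% beside 31% of all tested genes, with Rad54l (1.0) and Chek1 (0.83), both of DNA repair and its checkpoint, also higher and Vdac1 (-0.23) lower. Without siNC replicate 2, 2 of the list were called, and without siQk replicate 1, 3 were. Library size only gave 6 called higher and 1 lower.

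Among 27 tested genes of other motor neuron disease genes, 5 were called higher and 4 lower, 33.3% in all beside 31% of all tested genes, with a median log2 fold change of 0.06. Ccnf, a cyclin of the ubiquitin ligase machinery, rose from 1.61 ± 0.219 to 5.42 ± 1.31 RPKM (log2 fold change 1.60), Unc13a, a synaptic vesicle priming gene, from 3.23 ± 0.381 to 6.49 ± 1.47 RPKM (0.86), and Hnrnpa1, an RNA-binding protein gene, by 0.52. Grn, the gene of the lysosomal protein progranulin, fell from 54.0 ± 3.93 to 43.0 ± 0.989 RPKM (-0.48), with Atxn2 (-0.42) and Sqstm1 (-0.30), an autophagy receptor gene, also lower. With library size only, 10 were called higher and 1 lower, and with upper quartile scaling 7 and 2.

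Partners of TDP-43 and matrin-3 and proteins of RNA granules had 8 of 25 tested genes called higher and 1 lower, which is 36% beside 31% of all genes, with a median of 0.15. G3bp1, a nucleator of stress granules, rose from 37.3 ± 2.66 to 62.6 ± 4.65 RPKM (log2 fold change 0.60). Hnrnpa1 rose by 0.52 and the splicing repressor gene Ptbp1 by 0.40, while Atxn2 was the 1 gene called lower (-0.42). Without siQk replicate 1, 5 of the list were called, and with library size only 14 were, all higher.

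Autophagy receptors and core machinery, the setting of Optn, had 11 of 29 tested genes called lower and 0 higher in edgeR's test, 37.9% in all beside 31% of all tested genes called and 17.2% called lower, with a median log2 fold change of -0.14. At an unadjusted p below 0.05 in edgeR's test, 15 were lower and 1 higher, a rule for which the share over all genes was not computed. DESeq2 called 14 lower and 0 higher, where it called 39.1% of all tested genes (2213 higher and 2681 lower). Wipi1, which binds the membrane of the forming autophagosome, fell from 27.3 ± 4.61 to 15.8 ± 1.85 RPKM (log2 fold change -0.94), Atg10 from 6.25 to 4.03 RPKM (-0.78) and Atg3, a conjugating enzyme for the LC3 family, from 60.9 ± 3.07 to 44.1 ± 1.28 RPKM (-0.62). The count was 7 without siNC replicate 1, and also 7 without siQk replicate 1 or siQk replicate 2, where 25.4%, 19.8% and 21.5% of all genes were called. With library size only, 7 were called lower and 1 higher and the median was 0, and upper quartile scaling gave the same 2 counts.

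Of 19 tested partners of TBK1 and optineurin, 3 were called higher and 3 lower, 31.6% in all beside 31% of all tested genes. Myo6, the motor that optineurin binds, fell from 101 ± 11 to 52.5 ± 4.75 RPKM (log2 fold change -1.10), and Tank, an adaptor of TBK1, fell by 0.32 on the log2 scale. Htt, the huntingtin gene, was the third gene called lower (-0.30). Rab8b rose from 13.8 to 20.7 RPKM (0.44), with the signalling genes Ticam1 (0.46) and Ripk1 (0.43). Myo6 and Optn were thus both lower in siQk. Without siQk replicate 1, 2 of the list were called, and without siQk replicate 3, 3 were. Library size only gave 7 called higher and 1 lower, and upper quartile scaling 4 and 2.

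VCP cofactors had 1 of 25 tested genes called higher and 7 lower, 32% in all beside 31% of all tested genes, with a median of -0.06. Svip, the gene of a small inhibitor of VCP in endoplasmic reticulum degradation, fell from 8.54 ± 1.59 to 3.46 ± 0.269 RPKM (log2 fold change -1.45). Ngly1 and Ubxn2a followed, both at -0.48, and Ube4b, a ubiquitin chain elongation factor, rose from 28.5 to 40.3 RPKM (0.35). The balance depended on the scaling, since library size only gave 4 called higher and 1 lower, and upper quartile scaling 4 higher and 5 lower. Without siQk replicate 1 or siQk replicate 2, 5 were called. In the list of ubiquilin relatives and proteasome shuttles, 2 of 15 were called, 13.3% beside 31% of all tested genes, and these were Ubqln1 and Ubqln4, with 1 called without siQk replicate 2 and 3 called (2 higher, 1 lower) with library size only.

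Superoxide dismutases and antioxidant enzymes, the setting of Sod1, had 2 of 24 tested genes called higher and 8 lower, 41.7% in all beside 31% of all tested genes (13.8% higher and 17.2% lower), with a median of -0.19. Nfe2l2, the gene of the transcription factor NRF2 that drives antioxidant genes, fell from 26.3 ± 5.25 to 9.84 ± 0.502 RPKM (log2 fold change -1.57). Hmox1, the heme oxygenase gene, fell from 34.2 ± 3.11 to 15.4 ± 1.97 RPKM (-1.30) and Prdx6 by 0.90 on the log2 scale. Txn1 (0.32) and Prdx3 (0.31) were called higher. The count was 5, 6 and 4 without siQk replicates 1, 2 and 3, where 19.8%, 21.5% and 24% of all genes were called. With library size only, 3 were called higher and 3 lower, and with upper quartile scaling 3 and 6.

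**Figure D4:**
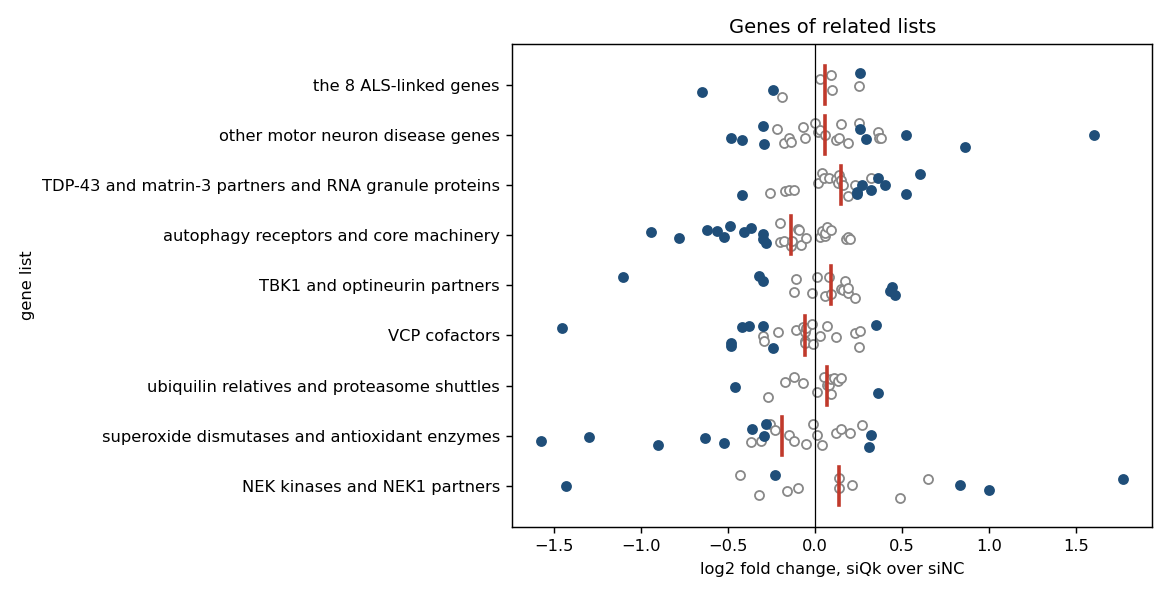
Log2 fold change of siQk over siNC in edgeR's fit with TMM scaling (x axis) for the 8 genes and for each tested gene of the related lists (1 row a list, with points spread vertically for legibility), filled where called and open where not, with a red line at the list's median. The medians lie between -0.19 for the antioxidant list and 0.15 for the RNA granule list, and library size only moves them to the right, to -0.04 and 0.31.

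Genes whose TMM-scaled level followed a member most closely over the 6 libraries were sought among 10033 genes with an average logCPM over 3, as a description, since the points share the difference between the groups. Each gene named had the highest r of that search on 6 points, so that a high r also reflects the search. Pearson r does not compare the size of changes. The log2 fold change was 0.10 for Flii beside 0.25 for Ubqln2, and 0.24 for Sin3a beside 0.26 for Tardbp. Tardbp was followed by Sin3a (Pearson r = 0.998 over 6 libraries), and 630 genes had r over 0.95 with it. Optn was followed by Rnf181 (r = 0.998), Sod1 by Schip1 (0.997), Tbk1 by Fam109a (0.999) and Ubqln2 by Flii (1.0), with 285, 239, 289 and 171 genes over 0.95. Matr3, Vcp and Nek1 had 12, 17 and 17 such genes, led by 5730455P16Rik (0.992), Taf6l (0.989) and Fam133b (0.987).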

How the data were processed

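RNA of mOPCs was sequenced by the authors from poly-A libraries made with a kit that does not mark strand, aligned to mm10 with OLego and quantified with Quantas (versions and gene annotation not given in the sources used here). The authors deposited, per library, an estimated count of tags per gene, not normalized, and RPKM, which equals the tags scaled by exon length and library total, as recomputing showed. The sources used here do not say if a tag stands for 1 read or for a pair. Other cell types of the study were not analysed here.

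After rounding of the estimated counts, the 12505 of 23038 genes whose average logCPM exceeded 0 entered edgeR's quasi-likelihood test, with TMM factors and the group as the only term. Calls needed P below 0.01 and a Benjamini-Hochberg adjusted p below 0.1 over all genes tested. Each standard error is the size of the log2 fold change over the root of its F value. The versions were edgeR 4.0.16, limma 3.58.1 and R 4.3.3. Single values were compared with exact two-sided permutation tests, which cannot go below 0.1 with 3 libraries against 3. Replicates differed by far more than sampling noise (chi-square over its degrees of freedom 36.3 or more), and each library counts as 1 replicate. The scripts were tested on simulated data.

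The 8 genes and the 8 related lists were chosen with earlier results of these data known. Named genes were the 8 members, Qk, up to 3 called genes each way per list, paralogs and the gene most like each member. Gfap and the other markers named singly, Rn45s and the overlapping genes were named after values were seen. Alternatives were RLE, upper quartile and library size only scaling, other filters, an adjusted p below 0.05 alone, a replicate block, thinning, DESeq2 1.42.0 and each library left out. Positions and 3′UTRs come from GENCODE M21.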

Additional observations from a re-analysis of the deposited data

How the results depend on the processing

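Of the 8 genes, Matr3, Tbk1 and Nek1 were not called under any of the 15 alternatives and kept their direction. Ubqln2 was called with upper quartile scaling (log2 fold change 0.31), library size only (0.39), no filter (0.27) and an adjusted p below 0.05 alone (0.25). Sod1 lost its call with upper quartile scaling (-0.18), library size only (-0.10), no filter (-0.22) and thinning to the smallest library (-0.23). With 1 library left out, the log2 fold change ranged from 0.24 to 0.28 for Tardbp, 0.19 to 0.32 for Ubqln2, -0.79 to -0.52 for Optn, -0.29 to -0.20 for Sod1 and -0.01 to 0.07 for Vcp, which turned direction without siNC replicate 2. In the same settings the number of the 8 called ranged from 0 to 3, higher from 0 to 2 and lower from 0 to 2, beside 19.8% to 29.7% of all tested genes. An adjusted p below 0.05 alone called 4, beside 36.9% of all tested genes. Called higher were 2 with upper quartile scaling, library size only, no filter or an adjusted p below 0.05 alone, and called lower was 1 with upper quartile scaling, library size only, no filter or thinning. Over all tested genes, 2234 were called higher and 1785 lower with upper quartile scaling, and 2989 and 1365 with library size only. No filter gave 2112 and 2388, an adjusted p below 0.05 alone 2119 and 2497, and thinning 1647 and 2077. The shares called either way were 32.1%, 34.8%, 23.4%, 36.9% and 29.7% in this order.

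Among all tested genes, library size only gave 2989 higher and 1365 lower, in place of 1730 and 2149. With 1 library left out, 2478 to 3704 were called, 1008 to 1610 higher and 1470 to 2094 lower, with the lowest count without siQk replicate 1 and 1104 higher without siQk replicate 2. Library size only called 14 RNA granule genes, 5 VCP cofactors and 6 antioxidant genes. With 1 library left out, calls ranged from 5 to 9 in the RNA granule list, 5 to 8 in VCP cofactors, 4 to 11 in antioxidant enzymes, 7 to 11 in autophagy, 2 to 5 in TBK1 partners, 2 to 5 in NEK kinases, 1 to 3 in proteasome shuttles and 6 to 9 in other motor neuron disease genes. The cause was not tested.

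Replicate numbers were not taken as pairs, since deviations from the group means of same-numbered libraries correlated at -0.05, -0.15 and -0.34, and no library was most like the one with its own number in the other group. With a replicate block, 1 of the 8 was called (Optn), 0 higher and 1 lower. At an unadjusted p below 0.05 in edgeR's test, 2 were higher and 2 lower, a rule for which the share over all genes was not computed. The block called 22.4% of all tested genes. Tardbp (0.26) and Sod1 (-0.24) kept their fold changes but not their calls. The block called 4 VCP cofactors and 4 other motor neuron disease genes. The spread between replicates, with 3 libraries per group, limits what can be told of changes as small as that of Vcp.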
